A study of Mus musculus with 18 samples.

Results

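Lysosomes are the acidic compartments in which cells digest what they engulf and what they recycle. The genes described here encode the digestive enzymes of the lysosome, 3 proteins of its membrane, the proton pump that acidifies it and the transcription factors that control many of these genes. They were taken by name, as a list of 36 gene symbols that was chosen with earlier results of these data known. All 36 were found among the 21831 gene rows of the deposited count table. By role they are 10 cathepsins (Ctsa, Ctsb, Ctsc, Ctsd, Ctsf, Ctsh, Ctsk, Ctsl, Ctss and Ctsz), 7 glycosidases (Gaa, Gla, Glb1, Gusb, Hexa, Naglu and Man2b1), 3 genes of sphingolipid breakdown (Asah1, Smpd1 and Psap), 3 genes of the lysosomal membrane (Lamp1, Lamp2 and Mcoln1), 10 subunits of the vacuolar proton pump or V-ATPase (Atp6v0a1, Atp6v0d1, Atp6v0d2, Atp6v0c, Atp6v1a, Atp6v1b2, Atp6v1c1, Atp6v1d, Atp6v1e1 and Atp6v1h) and 3 transcription factors of the TFEB family (Tfeb, Tfe3 and Mitf).

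The V-ATPase uses ATP to move protons into the lysosome. Its V1 sector sits in the cytosol and hydrolyses ATP, and its V0 sector sits in the membrane and carries the protons. The low pH that results activates cathepsins, which cut proteins, and glycosidases, which remove sugars from glycoproteins, glycolipids and glycogen. TFEB, TFE3 and MITF bind CACGTG-type sites, and a longer form of this site, the CLEAR element, was described in the promoters of lysosomal genes. Macrophages are rich in lysosomes because they clear dead cells, lipoproteins and microbes.

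The RNA came from peritoneal macrophages of C57BL/6 mice aged 6 weeks, kept in culture. Each mouse had received 1 mL of 3% thioglycollate, an irritant that recruits macrophages to the peritoneal cavity, 3 days before collection. The cells attached for 4 h and then received 20 µM PCN (pregnenolone 16alpha-carbonitrile), which binds and activates mouse PXR, a nuclear receptor for foreign compounds, or the solvent DMSO for 12 h. One genotype, PXRF/FLDLR-/- (FF), carries floxed alleles of PXR, and the other, PXRdeltaMyeLDLR-/- (dMye), lacks PXR in myeloid cells. Both genotypes, and so all 4 groups, also lack the LDL receptor. There were 3 libraries in each FF group (FF_DMSO, FF_PCN) and 6 in each dMye group (dMye_DMSO, dMye_PCN). The Cre driver of the deletion is not named in the labels, and neither is the number of animals or cultures behind the libraries, and p-values here reflect only library-to-library spread, which may be technical.

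Library totals lay between 21993697 and 30228017 counts. The targeted gene Nr1i2, which encodes PXR, had 2, 1, 2 and 3 counts summed over FF_DMSO, FF_PCN, dMye_DMSO and dMye_PCN, so neither its presence nor its loss was detectable at this depth. Sex followed genotype: 4 Y-linked genes summed to between 113 and 139 CPM in the FF libraries and to between 0.451 and 1.49 CPM in the dMye libraries. Every comparison of FF with dMye is therefore also a comparison of sexes, and the 2 cannot be told apart. All 36 lysosomal genes passed the filter on low counts, with between 42 and 890191 counts in a library. Levels are CPM, each gene's counts relative to its library's total after TMM scaling, and fold changes come from an edgeR quasi-likelihood fit of 13409 genes. A gene is called higher or lower where its Benjamini-Hochberg adjusted p over these genes is under 0.05.

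The CACGTG motif (the E-box) and its longer form TCACGTGA, the core of the CLEAR element, were looked for in the promoters of these genes. The windows were those of RefSeq on GRCm38.p6, from 250 bases before to 50 bases after each annotated start, and 29 of the 36 genes had one. Both motifs read the same on either strand, and every CLEAR core contains an E-box. An E-box was present for 12 of the 29 genes (41.4%), against 8.09% of 27025 genes with a window and 11.4% of the 10392 tested genes with one. The CLEAR core was present for 6 of the 29 (20.7%), against 1.12% of all genes with a window and 2.09% of the tested ones. Among 85 other genes of the lysosome and of its control with a window, 8.24% held it. A match is a run of letters and does not show that a factor bound there.

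The 6 stretches that hold the CLEAR core are all shown, 4 at genes that rose with PCN in FF and 2 at genes not called. They are chr2:164833736-164833784 on the plus strand for Ctsa, chr7:142387895-142387950 on the minus strand for Ctsd, chr8:3500449-3500504 on the plus strand for Mcoln1, chr8:105566053-105566092 on the minus strand for Atp6v0d1, chr16:44139360-44139415 on the minus strand for Atp6v1a and chrX:134601169-134601255 on the minus strand for Gla. Each is written 5′ to 3′ on the strand of its gene, and capitals mark the CLEAR core.
Ctsa: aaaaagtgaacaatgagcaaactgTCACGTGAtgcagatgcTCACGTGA
Ctsd: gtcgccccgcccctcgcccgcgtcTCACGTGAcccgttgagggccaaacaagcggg
Mcoln1: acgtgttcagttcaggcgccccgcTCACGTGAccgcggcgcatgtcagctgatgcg
Atp6v0d1: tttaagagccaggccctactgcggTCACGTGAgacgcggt
Atp6v1a: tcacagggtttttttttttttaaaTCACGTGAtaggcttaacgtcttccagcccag
Gla: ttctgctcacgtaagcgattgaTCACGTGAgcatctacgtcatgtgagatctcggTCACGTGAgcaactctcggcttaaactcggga

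Ctsa and Gla hold the core at 2 places and the other 4 genes at 1. Counted from the annotated start as base 1, with no base 0, the first base of the core was at -13 and 5 in Ctsa, at -99 in Ctsd, at -46 in Mcoln1, at -4 in Atp6v0d1, at -132 in Atp6v1a and at -228 and -195 in Gla. Lamp1, which encodes an abundant glycoprotein of the lysosomal membrane, held 4 E-boxes between -61 and -15 and no CLEAR core. Glb1, Naglu, Gaa, Ctsl and Ctsf held 1 E-box each without the longer form. The windows of the other 17 genes held neither motif, which says only that these letters are not in these 300 bases.

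**Figure D1:**
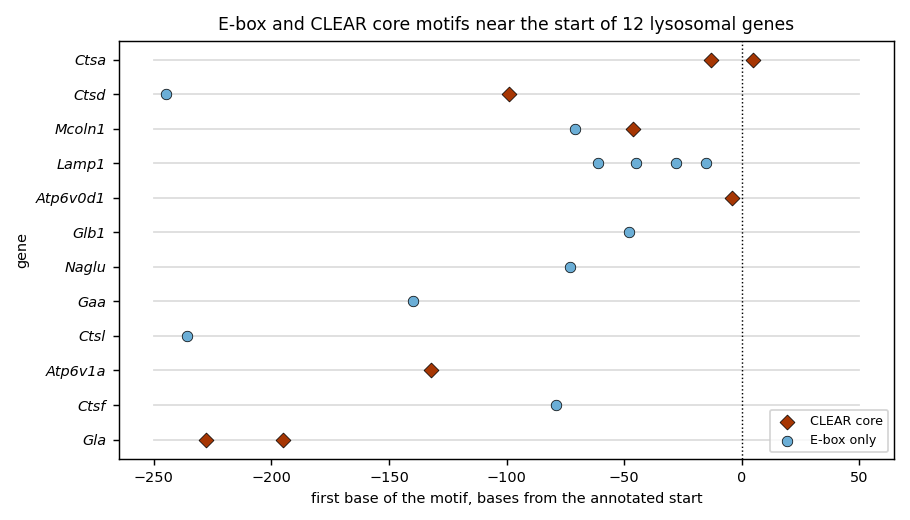
Position of the motifs in the 12 promoter windows that hold one, in bases from the annotated start (x axis) for each gene (y axis). Diamonds mark a CLEAR core and circles an E-box without it. The 4 E-boxes of Lamp1 lie close together, and the core of Atp6v0d1 lies at -4, next to the start.

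Lysosomal transcripts were abundant in these macrophages. The 36 genes together took 9.77% of scaled counts in FF_DMSO (range over libraries 9.70% to 9.82%), 9.72% in FF_PCN (9.66% to 9.78%), 9.83% in dMye_DMSO (9.14% to 10.5%) and 9.63% in dMye_PCN (9.41% to 10.1%). The ranges of the 4 groups overlapped. To compare genes with each other, levels were divided by the length of the merged exons. On this per-kilobase scale Psap, which encodes the precursor of the saposins that help enzymes reach their lipids, was the highest in FF_DMSO at 11103 ± 60.5 CPM per kb (SD, n = 3), followed by the aspartic protease gene Ctsd at 9059 ± 158. The cysteine protease genes Ctss at 4660.1 ± 98.5, Ctsb at 2252 ± 27.2 and Ctsz at 1689 ± 20.9 came next, then Lamp1 at 1343 ± 14.8 and Hexa, a subunit of beta-hexosaminidase, at 999.9 ± 17.8. The libraries of these 7 genes did not overlap on this scale, so their order held in each of the 3 libraries.

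The proton pump genes stood lower and spread widely. On the per-kilobase scale they ranged from 27.9 ± 1.04 CPM per kb for Atp6v1h to 516 ± 11.3 for Atp6v0c (SD, n = 3, FF_DMSO). Atp6v0c encodes the proteolipid that forms the membrane ring, and the annotation holds processed copies of it, so its level is less certain than the others. The 2 forms of the d subunit were both present, at 393 ± 15.2 CPM per kb for Atp6v0d2, known for its high expression in osteoclasts and macrophages, and 308 ± 10.1 for the broadly expressed Atp6v0d1. The levels of Atp6v0d1 and Atp6v1b2 (307 ± 6.23) overlapped between libraries and cannot be ordered. The transcription factor genes were among the lowest, with Mitf at 17.5 ± 1.64 CPM per kb, Tfeb at 15.7 ± 0.250 and Tfe3 at 10.5 ± 0.757. Ctsf was lowest of all at 0.581 ± 0.0522.

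PCN raised 6 of the 10 listed proton pump genes in FF macrophages. These were Atp6v0d1, Atp6v0d2, Atp6v1a, Atp6v1b2, Atp6v1c1 and Atp6v1d, and 0 of the 10 were lower. The 10 genes had a median log2 fold change of 0.20 against 0.01 over all tested genes. The pump has other subunits, and of 10 others tested 1 was higher and 0 lower, with a median of -0.02 and 5 of 10 above 0. Over all 36 lysosomal genes 8 were higher, 2 were lower and 26 were not called, with a median of 0.02. Among all 13409 genes tested in this comparison 13.8% were called, 6.82% higher and 6.98% lower. The lists were chosen with earlier results of these data known, so counts set beside these shares are a description and not a test. The changes were small: the largest rise among the 36 genes was 1.23-fold.

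In the membrane sector the d subunit genes rose. Atp6v0d1 (chromosome 8, 105524465 to 105566047, minus strand), whose d subunit joins the membrane ring to the stalk of the pump, was at 562, 563 and 532 CPM in the FF_DMSO libraries and at 681, 689.9 and 664 in the FF_PCN libraries. All 3 PCN libraries lay above all 3 DMSO libraries, and the log2 fold change was 0.30 (SE 0.06, edgeR adjusted p = 0.0012). Atp6v0d2 (chromosome 4, 19876841 to 19922605, minus strand) was at 1032, 1112 and 1055 CPM with DMSO and 1207, 1331 and 1282 with PCN. The groups did not overlap here either (log2 0.26, SE 0.07, edgeR adjusted p = 0.017), but the call was lost without FF_DMSO 1, FF_DMSO 3, FF_PCN 2 or FF_PCN 3 (highest adjusted p 0.096).

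The other 2 genes of the membrane sector were not called. Atp6v0c was at 1789.6, 1737 and 1715 CPM with DMSO and at 1907, 1836 and 1847 with PCN, so its libraries did not overlap, with a log2 fold change of 0.09 (SE 0.05, edgeR adjusted p = 0.31). Atp6v0a1, whose a subunit lines the proton path, was at 558, 581 and 556 CPM with DMSO and 572, 612 and 529.7 with PCN. Its libraries overlapped and its log2 fold change was 0.02 (95% interval -0.14 to 0.17, edgeR adjusted p = 0.93).

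In the cytosolic sector 4 of 6 genes rose. Atp6v1c1 (chromosome 15, 38661933 to 38692446, plus strand), whose C subunit takes part in the assembly of both sectors, was at 1496, 1548 and 1451 CPM with DMSO and at 1798, 1830.5 and 1852 with PCN (log2 0.29, SE 0.06, edgeR adjusted p = 0.002). Atp6v1d (chromosome 12, 78840725 to 78861638, minus strand), which encodes part of the rotating central stalk, was at 201, 205 and 197 CPM with DMSO and at 245, 246 and 251 with PCN (log2 0.30, SE 0.08, edgeR adjusted p = 0.013). For both genes the PCN libraries formed a narrow band above the DMSO libraries. Both calls held without any single library, but that of Atp6v1d only just. The highest edgeR adjusted p was 0.015 for Atp6v1c1 and, rounded, 0.05 for Atp6v1d.

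The subunits that form the ATP-hydrolysing head also rose. Atp6v1a (chromosome 16, 44085402 to 44139705, minus strand), the catalytic A subunit, was at 1316, 1368 and 1353 CPM with DMSO and 1486, 1511 and 1577 with PCN (log2 0.18, SE 0.05, edgeR adjusted p = 0.012). Its call was lost without FF_DMSO 1 or FF_PCN 3 (highest adjusted p 0.083). Atp6v1b2 (chromosome 8, 69088646 to 69113711, plus strand), the B subunit, was at 1639, 1652 and 1589 CPM with DMSO and 1746, 1863 and 1849 with PCN (log2 0.16, SE 0.05, edgeR adjusted p = 0.032). It was the least stable of the 6: its call was lost with upper-quartile scaling, with no filter and without any of FF_DMSO 1, 2 and 3 and FF_PCN 2 and 3 (highest adjusted p 0.14).

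Atp6v1h and Atp6v1e1 were not called. Atp6v1h, whose H subunit regulates the coupling of the sectors, was at 276, 280.3 and 261 CPM with DMSO and 305, 319 and 321 with PCN (log2 0.21, SE 0.08, edgeR adjusted p = 0.077). It passed in a fit of the FF libraries alone, without dMye_DMSO 5, without dMye_PCN 5 and without dMye_DMSO 5 and 6 (lowest adjusted p without single libraries 0.043). Atp6v1e1, a subunit of the outer stalk, was at 322, 316 and 303 CPM with DMSO and 328, 335 and 347 with PCN (log2 0.10, SE 0.09, edgeR adjusted p = 0.51). In both genes the 3 PCN libraries still lay above the 3 DMSO libraries. Over the pump genes, 9 of 10 had libraries that did not overlap, all with PCN above DMSO, where 17.8% of all tested genes did so in that direction. Over all 36 genes 13 lay wholly above and 8 wholly below their DMSO libraries, while of all tested genes 33.7% did not overlap, 17.8% with PCN above and 15.9% with PCN below. Summed over the 10 genes, the level was 9189.8 ± 175 CPM in FF_DMSO (9014 to 9363) and 10456 ± 159 in FF_PCN (10276 to 10574, SD, n = 3).

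**Figure D2:**
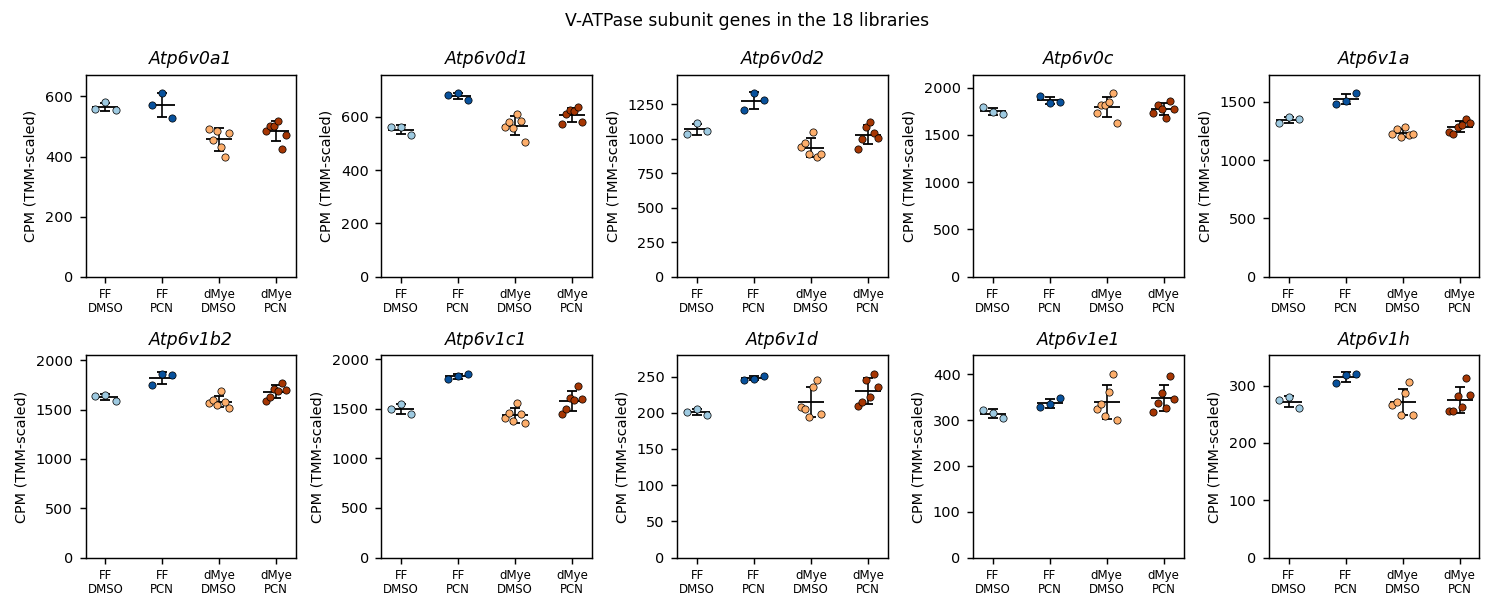
Levels of the 10 V-ATPase subunit genes in all 18 libraries, in TMM-scaled CPM (y axis, from 0) for the 4 groups (x axis). Points are libraries, horizontal bars are group means and error bars are SDs. In 9 panels the 3 FF PCN libraries sit above the 3 FF DMSO libraries, with Atp6v0a1 as the exception. The dMye groups overlap in every panel.

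No cathepsin gene was called with PCN in FF macrophages. Of 10 cathepsins 0 were called by edgeR, 3 had an unadjusted p under 0.05, and DESeq2 also called 0. The median log2 fold change was 0.00, and the summed level was 47874 ± 527 CPM in FF_DMSO and 46522 ± 781 in FF_PCN. Ctsb, a major cysteine protease, was at 13554, 13813 and 13508 CPM with DMSO and 13555, 13647 and 13837 with PCN, with a log2 fold change of 0.01 (95% interval -0.09 to 0.11). The interval for Ctsd was -0.19 to 0.06, that for Ctsl was -0.18 to 0.16 and that for Ctsa, which protects other lysosomal enzymes, was -0.16 to 0.05.

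Some cathepsins stood near the threshold, in different directions. Ctsk, a collagen-degrading protease of osteoclasts, was at 307, 302 and 298 CPM with DMSO and 355, 343 and 362 with PCN (log2 0.23, edgeR adjusted p = 0.082). Ctsz was at 2400.2, 2459 and 2441 CPM with DMSO and 2794, 2728 and 2805 with PCN (log2 0.19, edgeR adjusted p = 0.083). Ctss, which trims the invariant chain of MHC class II, was at 6466, 6199 and 6321 CPM with DMSO and 5549, 5216 and 5722 with PCN (log2 -0.20, edgeR adjusted p = 0.19). For all 3 genes the FF groups did not overlap. Leaving out dMye_DMSO 5, a library of the other genotype that enters the shared estimate of spread, brought Ctsk, Ctsz and Ctss past the threshold (adjusted p = 0.017, 0.016 and 0.023), and so did fitting the FF libraries alone. Ctsf was at 2.77, 3.23 and 2.78 CPM with DMSO and 2.37, 1.72 and 2.38 with PCN (log2 -0.44, 95% interval -0.82 to -0.06, edgeR adjusted p = 0.12). Ctsc, which activates serine proteases of granules, and Ctsh, an aminopeptidase, had log2 fold changes of 0.05 and 0.03.

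Glycosidases changed in both directions in FF macrophages, with 1 of 7 higher and 2 lower. Gla (chromosome X, 134588149 to 134601125, minus strand), alpha-galactosidase A, which removes galactose from glycolipids, was at 542, 550.3 and 529.6 CPM with DMSO and 622, 656 and 666 with PCN (log2 0.26, SE 0.06, edgeR adjusted p = 0.0028). Gusb (chromosome 5, 129989011 to 130003049, minus strand), beta-glucuronidase, which acts on glycosaminoglycans, was at 636, 633 and 634 CPM with DMSO and 536, 522 and 547 with PCN (log2 -0.24, SE 0.05, edgeR adjusted p = 0.0008). Both calls held without any single library. The FF_DMSO libraries of Gusb were unusually close, with a coefficient of variation of 0.2%, against a median of 2.08% over the 36 genes in that group.

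Man2b1 (chromosome 8, 85083270 to 85098282, plus strand), the lysosomal alpha-mannosidase, was at 487, 469.7 and 477 CPM with DMSO and 413, 419.6 and 427 with PCN. The groups did not overlap (log2 -0.19, SE 0.06, edgeR adjusted p = 0.04), but the call was lost without any one of the 6 FF libraries and without dMye_DMSO 2 or 3 (highest adjusted p 0.14). The other 4 glycosidases were not called. Gaa, the acid glucosidase that degrades glycogen, had a log2 fold change of 0.07, Glb1, beta-galactosidase, -0.01, and Hexa and Naglu, which act on gangliosides and heparan sulfate, 0.00 each.

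In the lysosomal membrane the channel gene rose. Mcoln1 (chromosome 8, 3500457 to 3515232, plus strand) encodes the calcium channel TRPML1. It was at 142, 152 and 137 CPM with DMSO and 167, 162 and 162 with PCN (log2 0.19, SE 0.05, edgeR adjusted p = 0.01). The groups did not overlap, and the call was lost without FF_DMSO 1, FF_DMSO 3 or FF_PCN 1 (highest adjusted p 0.11). The structural membrane genes were not called: Lamp1 had a log2 fold change of -0.06 (95% interval -0.17 to 0.05) and Lamp2 of -0.01 (-0.13 to 0.11). The sphingolipid genes were not called either, with log2 fold changes of -0.03 for acid ceramidase (Asah1), -0.00 for acid sphingomyelinase (Smpd1) and -0.01 for Psap.

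None of the TFEB family genes was called in FF macrophages. Tfeb (chromosome 17, 47737030 to 47792419, plus strand) was at 90.4, 87.7 and 89.7 CPM with DMSO and 80.1, 78.5 and 73.7 with PCN. The groups did not overlap (log2 -0.20, SE 0.07, edgeR adjusted p = 0.051), and the gene passed the threshold in 13 of 26 alternative settings, DESeq2 among them. Tfe3 was at 89.6, 97.5 and 104 CPM with DMSO and 101, 107 and 98.1 with PCN, and Mitf at 96.4, 113 and 115 with DMSO and 108, 122 and 108 with PCN. For these 2 genes the groups overlapped, and the log2 fold changes were 0.07 and 0.06.

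Set beside the motifs, 5 of the 8 genes that rose have a promoter window, and the CLEAR core is in 4 of them (Gla, Mcoln1, Atp6v0d1 and Atp6v1a, but not Atp6v1d). It is in 0 of the 2 windows of genes that fell (Gusb and Man2b1) and in 2 of the 22 windows of genes not called (Ctsa and Ctsd). The core was not counted over all tested genes that rose or fell, so these counts have no matching share beside them. No test of them was made, and a part of TFEB family factors in these changes was not tested.

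**Figure D3:**
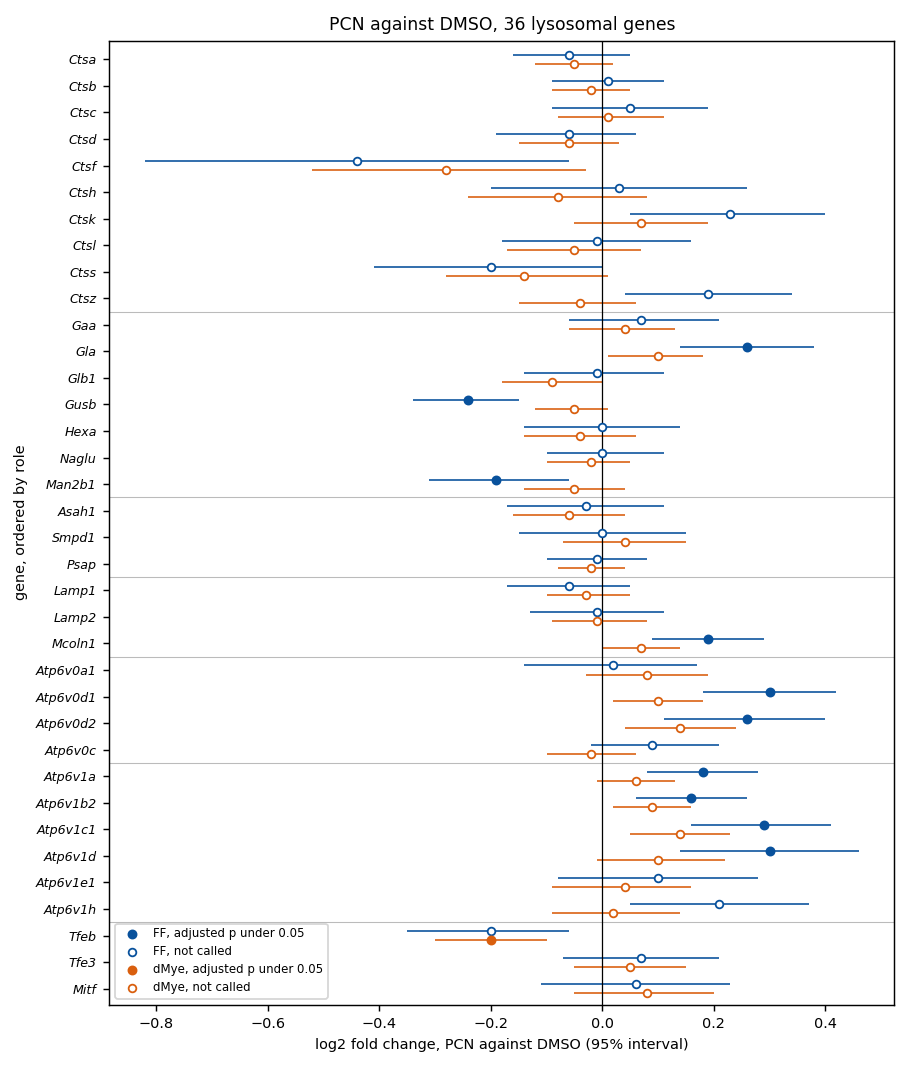
Log2 fold change with PCN (x axis) for each of the 36 genes (y axis, ordered by role), in FF (blue) and dMye (orange) macrophages. Lines are 95% intervals and filled circles have an edgeR adjusted p under 0.05. In FF the filled points to the right are mostly pump genes, while the cathepsins have open points on both sides of 0. In dMye the one filled point is Tfeb.

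Some cell type markers moved with PCN in the same FF libraries, where 6.82% of all tested genes were called higher and 6.98% lower. Of 13 macrophage markers 7 fell and 0 rose, and their summed level was 13574 to 14238 CPM in FF_DMSO and 10876 to 11406 in FF_PCN. Of 10 B cell markers 4 fell, with sums of 112 to 123 and 98.5 to 111 CPM, and 2 of 6 tested neutrophil markers fell, with sums of 159 to 164 and 124 to 132 CPM. Of 11 mesothelial cell or fibroblast markers 1 was called lower, near the share of all tested genes, and 0 had a fold change above 0. Among 5 tested markers of osteoclast-like or fused cells 1 fell. No tested marker of T or NK cells, eosinophils or mast cells, or dendritic cells was called. All the macrophage and B cell markers had counts in both groups. In bulk RNA fewer cells of a type and less RNA per cell cannot be told apart. The part of these shifts in the lysosomal changes was not tested.

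In dMye macrophages PCN changed 1 of the 36 genes. Of all 13409 genes 2.08% were called in this comparison, 0.94% higher and 1.14% lower. Tfeb fell, from 79.2, 82.5 and 90.3 CPM (lowest, median and highest of 6) with DMSO to 64.9, 73.0 and 78.5 with PCN. The 6 PCN libraries lay below the 6 DMSO libraries (log2 -0.20, SE 0.05, edgeR adjusted p = 0.033), which 1.19% of all tested genes did. No other gene of the 36 separated in this way, in either direction, where of all tested genes 2.27% did, 1.07% with PCN above and 1.19% with PCN below. The call was lost with no filter, in a fit of the dMye libraries alone, and without any one of dMye_DMSO 2, 3 and 5 and dMye_PCN 1, 4 and 6 (highest adjusted p 0.089). The fold change of Tfeb in FF was also -0.20, so its transcript was lower by the same estimate in both genotypes, with a difference of 0.01 (95% interval -0.17 to 0.18).

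The pump genes were not called in dMye macrophages. Of the 10 V-ATPase genes 0 passed in edgeR, 4 had an unadjusted p under 0.05 and DESeq2 called Atp6v1c1. Atp6v1c1 was at 1354, 1425 and 1555 CPM (lowest, median and highest) with DMSO and 1449, 1593 and 1727 with PCN (log2 0.14, SE 0.04, edgeR adjusted p = 0.087), and it also passed without dMye_DMSO 4. Atp6v0d2 was at 867, 916 and 1049 CPM with DMSO and 927, 1021 and 1122 with PCN (log2 0.14, edgeR adjusted p = 0.16), and Atp6v0d1 at 507, 571 and 610.0 with DMSO and 573, 617 and 636 with PCN (log2 0.10, edgeR adjusted p = 0.23). Their groups overlapped. The 10 log2 fold changes ran from -0.02 to 0.14 with 9 above 0 and a median of 0.08, against -0.01 over all tested genes. The summed pump level was 8829 ± 344 CPM in dMye_DMSO (8352 to 9351) and 9292 ± 337 in dMye_PCN (8784 to 9773, SD, n = 6).

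The other genes that changed in FF were also not called in dMye. Gla was at 497, 524 and 559 CPM (lowest, median and highest) with DMSO and 525, 565 and 607 with PCN (log2 0.10, edgeR adjusted p = 0.25). Mcoln1 was at 144, 149 and 154 CPM with DMSO and 151, 156 and 163 with PCN (log2 0.07, edgeR adjusted p = 0.35). Gusb was at 611, 629.7 and 674 CPM with DMSO and 592, 611 and 633 with PCN (log2 -0.05, edgeR adjusted p = 0.47), and Man2b1 at 324, 376 and 395 with DMSO and 342, 359 and 378 with PCN (log2 -0.05, edgeR adjusted p = 0.62). The groups overlapped for all 4 genes. Of 10 cathepsins 0 were called, and their log2 fold changes ran from -0.28 for Ctsf to 0.07 for Ctsk.

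**Figure D4:**
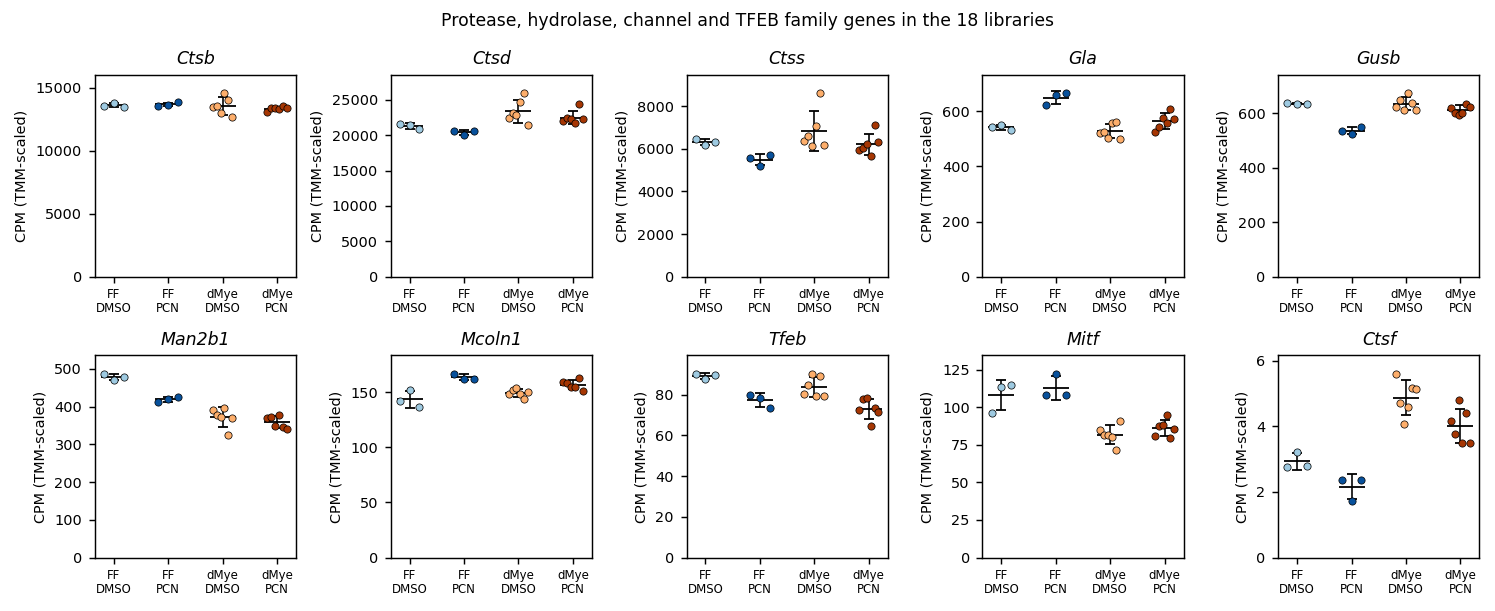
Levels of 10 protease, glycosidase, channel and transcription factor genes in the 18 libraries, in TMM-scaled CPM (y axis, from 0) for the 4 groups (x axis). Points are libraries, horizontal bars are group means and error bars are SDs. Gla and Mcoln1 stand higher and Gusb and Man2b1 lower in FF PCN than in FF DMSO, Tfeb is lower with PCN in both genotypes, and Mitf and Ctsf separate the genotypes.

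The difference between the PCN effects was then tested directly. Of the 36 genes 0 passed in edgeR, where 1.42% of all tested genes did, 0.746% with a higher and 0.671% with a lower effect in dMye. At an unadjusted p under 0.05 there were 5, and DESeq2 called 1, Gusb. For Gusb the dMye effect minus the FF effect was 0.19 on the log2 scale (SE 0.06, edgeR adjusted p = 0.093, and between 0.038 and 0.19 without single libraries). The next were Atp6v0d1 at -0.20 (SE 0.07, edgeR adjusted p = 0.2), Ctsz at -0.23 (SE 0.09, adjusted p = 0.22) and Gla at -0.17 (SE 0.07, adjusted p = 0.29). For the 10 pump genes the differences ran from -0.20 to 0.07, and their 95% intervals together spanned -0.40 to 0.26. Of these 10 intervals 8 included 0.

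Across the 36 genes the PCN effects of the genotypes, which rest on different libraries, had Pearson's r of 0.86 and Spearman's rho of 0.83. Among the 10 pump genes alone they were 0.58 and 0.67. Over all 13409 tested genes the values were 0.19 and 0.36, but those genes were not matched for level, so the comparison is not like for like. The sign was shared by 29 of the 36 genes (80.6%), against 66.4% of all tested genes, and the effect was larger in size in FF for 25 of them (69.4%), against 70.7%. These are correlations across genes, which are not independent of each other, and are given as a description.

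At baseline 7 of the 36 genes differed between the genotypes, a share not above that of all tested genes. Under DMSO 2 were called higher in dMye (Ctsf and Glb1) and 5 lower (Man2b1, Atp6v0a1, Atp6v0d2, Atp6v1a and Mitf), where 21.8% of all tested genes were called, 13.9% higher and 7.85% lower. Under PCN 3 were higher (Ctsf, Glb1 and Gusb) and 10 lower (Gla, Man2b1, Psap, Atp6v0a1, Atp6v0d1, Atp6v0d2, Atp6v1a, Atp6v1c1, Atp6v1h and Mitf), where 27.6% of all tested genes were called, 16.2% higher and 11.4% lower. The FF_PCN libraries of the second comparison are those of the PCN effect in FF, so the pump genes in both are not separate observations. Gla, Lamp2 and Tfe3 are X-linked, and of these only Gla was called, under PCN. Without regard to the calls, 4 of the 36 genes lay wholly above and 5 wholly below FF under DMSO, where 24.7% of all tested genes did not overlap, 15.0% above and 9.73% below. Under PCN these counts were 4 and 12, where 27.5% of all tested genes did not overlap, 16.1% above and 11.5% below.

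Mitf and Man2b1 were lower in dMye under both treatments. Mitf (chromosome 6, 97807052 to 98021349, plus strand) was at 96.4, 113 and 115 CPM in FF_DMSO and at 71.8, 81.3 and 91.1 (lowest, median and highest) in dMye_DMSO (log2 -0.40, SE 0.07, edgeR adjusted p = 0.00016). Under PCN it was at 108, 122 and 108 CPM in FF and at 79.7, 86.5 and 94.7 in dMye (log2 -0.39, SE 0.07, edgeR adjusted p = 0.00019). For Man2b1, whose library values are given above, the log2 difference was -0.36 (SE 0.05, edgeR adjusted p = 1.4e-05) under DMSO and -0.22 (SE 0.05, adjusted p = 0.0023) under PCN. In neither gene did the genotypes overlap under either treatment.

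Among the pump genes, 3 were lower in dMye under DMSO and 6 under PCN. Atp6v0a1 was at 558, 581 and 556 CPM in FF_DMSO and at 397, 467 and 493 (lowest, median and highest) in dMye_DMSO (log2 -0.31, SE 0.07, edgeR adjusted p = 0.0014). With PCN the values were 572, 612 and 529.7 against 425, 493 and 519 (log2 -0.24, edgeR adjusted p = 0.0085), so the genotypes separated under both treatments, although the call under PCN was lost without FF_PCN 2 (adjusted p 0.096). Atp6v0d2 stood at -0.19 (SE 0.06, edgeR adjusted p = 0.026) under DMSO, with overlapping libraries, and at -0.31 (SE 0.06, adjusted p = 0.00051) under PCN, without overlap. Atp6v1a stood at -0.12 (SE 0.04, edgeR adjusted p = 0.032) under DMSO and -0.24 (SE 0.04, adjusted p = 8e-05) under PCN. Its dMye libraries were at 1197, 1225 and 1289 CPM (lowest, median and highest) with DMSO and 1226, 1296 and 1353 with PCN, below all FF libraries of the same treatment. Under DMSO the calls of Atp6v0d2 and Atp6v1a were lost with upper-quartile scaling and without FF_DMSO 2. That of Atp6v0d2 was also lost without dMye_DMSO 5 and 6. That of Atp6v1a was also lost without FF_DMSO 3 and in a fit of the compared groups alone. The highest edgeR adjusted p without single libraries was 0.14 for Atp6v0d2 and 0.13 for Atp6v1a. Of the other genes lower under PCN, the call of Psap was lost in 10 of 26 alternative settings, that of Atp6v1h in 6 and that of Atp6v0d1 in 3 (highest adjusted p without single libraries 0.11, 0.085 and 0.062).

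Glb1 and Ctsf were higher in dMye under both treatments, and Gusb under PCN. Glb1 was at 102, 105 and 106 CPM in FF_DMSO and 112, 122 and 127 (lowest, median and highest) in dMye_DMSO (log2 0.22, SE 0.05, edgeR adjusted p = 0.0045). Its difference under PCN, 0.14 (edgeR adjusted p = 0.048), failed in 16 of 26 alternative settings. Gusb under PCN was at 536, 522 and 547 CPM in FF and 592, 611 and 633 in dMye (log2 0.19, SE 0.04, edgeR adjusted p = 0.00087), while under DMSO the FF libraries lay within the dMye range (log2 0.00, adjusted p = 0.99).

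Ctsf was at 2.77, 3.23 and 2.78 CPM in FF_DMSO and 4.08, 4.91 and 5.61 (lowest, median and highest) in dMye_DMSO (log2 0.73, SE 0.15, edgeR adjusted p = 0.001). Under PCN it was at 2.37, 1.72 and 2.38 CPM in FF and 3.49, 3.96 and 4.79 in dMye (log2 0.90, SE 0.16, edgeR adjusted p = 0.00018). Markers of mesothelial cells and fibroblasts, which line and support the peritoneum, moved the same way: 11 of 11 were higher in dMye under both treatments, with sums of 188 to 189 CPM in FF_DMSO, 151 to 169.8 in FF_PCN, 666 to 808 in dMye_DMSO and 636 to 741 in dMye_PCN, and all had counts in every group. Of 13 macrophage markers 3 were higher and 3 lower in dMye under DMSO and 7 higher and 2 lower under PCN. Their summed levels were 8959.7 to 11466 CPM in dMye_DMSO and 8784 to 9585 in dMye_PCN. Both lay below the FF sums of the same treatment, 13574 to 14238 CPM in FF_DMSO and 10876 to 11406 in FF_PCN. Under PCN the sum was thus lower in dMye although more markers were called higher than lower. Under DMSO 7 of 10 B cell markers, 4 of 7 tested T or NK cell markers, 3 of 6 neutrophil markers and 2 of 5 dendritic cell markers were lower in dMye and 0 of each higher. Under PCN 3, 2, 1 and 1 of these were lower and 1, a T or NK cell marker, was higher. Of all tested genes 13.9% were higher and 7.85% lower under DMSO, and 16.2% were higher and 11.4% lower under PCN. The summed B cell markers were at 84.6 to 96.7 CPM in dMye_DMSO and 87.0 to 96.3 in dMye_PCN, and the FF sums are given above. The part of these shifts, or of sex, in the genotype differences was not tested.

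**Figure D5:**
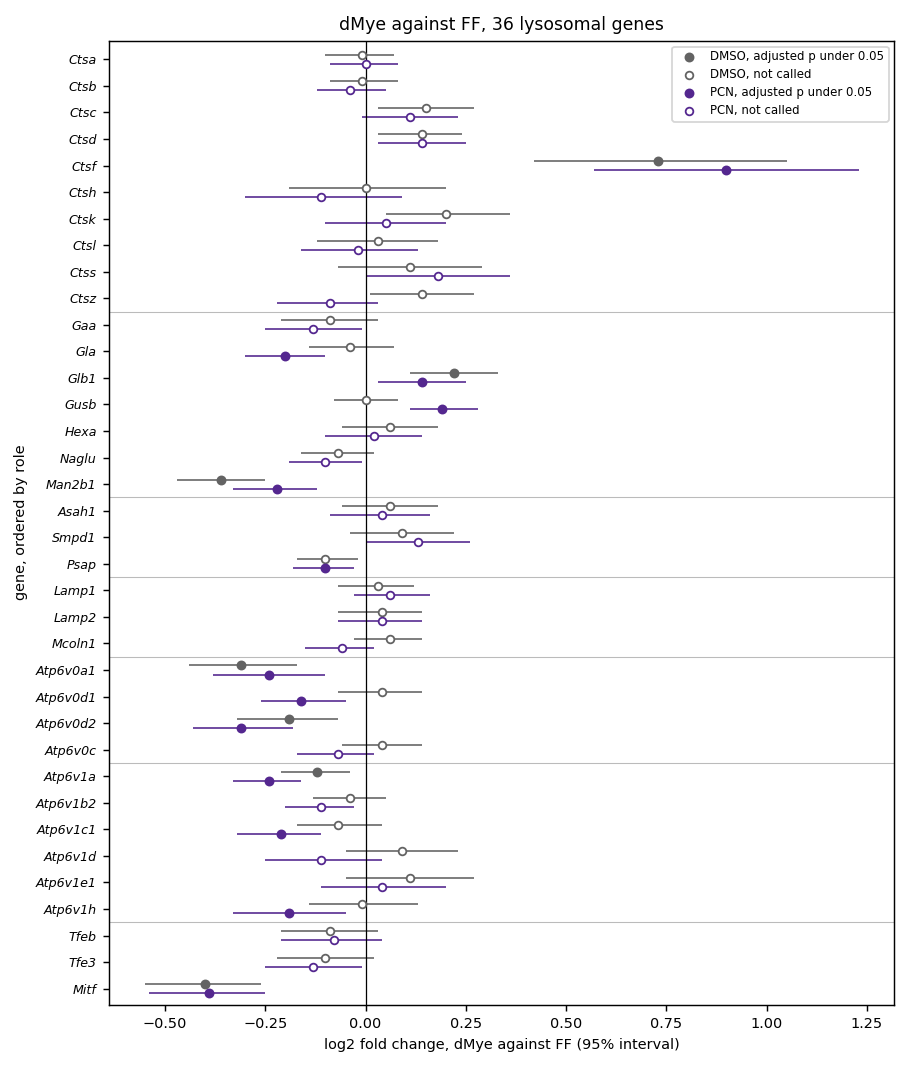
Log2 fold change of dMye against FF macrophages (x axis) for each of the 36 genes (y axis, ordered by role), under DMSO (grey) and under PCN (purple). Lines are 95% intervals and filled circles have an edgeR adjusted p under 0.05. Ctsf stands apart on the right at 0.73 and 0.90, and Mitf, Man2b1 and Atp6v0a1 stand to the left of 0 under both treatments.

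Within groups the genes of the pump and the cathepsins varied together. After each library's log2 level was centred on its group, the median pairwise correlation over 18 libraries was 0.62 among the 10 pump genes and 0.72 among the 10 cathepsins, against 0.04 among the 7 glycosidases and 0.00 among all tested genes. Between pump genes and cathepsins the median was 0.51 (0.54 without dMye_DMSO 5 and dMye_PCN 5), so the covariation was not particular to either list. Single pairs ran from -0.81 to 0.95 among the pump genes and from -0.02 to 0.95 among the cathepsins, over 18 libraries. The tested genes were not matched for level with these lists, so that comparison is not like for like. All these values share the same libraries and scaling and are given as a description. Atp6v0a1 ran against the rest of the pump, with a median correlation of -0.51 with the other 9 genes. Without the libraries dMye_DMSO 5 and dMye_PCN 5 the medians were 0.68 for the pump, 0.50 for the cathepsins, 0.25 for the glycosidases and -0.41 for Atp6v0a1. In dMye_DMSO 5 the cathepsins summed to 56569 CPM and in dMye_PCN 5 to 52122, the highest of their groups. The dMye groups were more variable than the FF groups: the median coefficient of variation over the 36 genes was 2.08% in FF_DMSO, 2.81% in FF_PCN, 6.04% in dMye_DMSO and 5.71% in dMye_PCN.

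Other genes of the lysosome and of its control gave the context. They include genes of enzyme sorting, of mTORC1 and TFEB control and of protease inhibitors, and are called other lysosomal genes for short. Of 107 such genes in 6 lists 99 were tested, and in FF macrophages 17 were higher and 16 lower with PCN, with a median log2 fold change of -0.01. Over all tested genes 6.82% were higher and 6.98% lower. Of 36 other hydrolases and activators 3 rose and 11 fell. Lipa, the acid lipase that frees cholesterol and fatty acids, fell from 1582 ± 24.7 to 1108 ± 17.8 CPM (SD, n = 3, log2 -0.51, edgeR adjusted p = 2.7e-07). Gm2a, the activator that presents gangliosides to beta-hexosaminidase, fell from 181 ± 3.76 to 135 ± 1.58 CPM (SD, n = 3, log2 -0.42, edgeR adjusted p = 2.4e-05), and Sgsh, a sulfatase of heparan sulfate breakdown, from 36 ± 1.21 to 23.3 ± 1.55 (log2 -0.63, edgeR adjusted p = 2.5e-05). Of 22 other membrane and transport genes 6 rose and 2 fell: the channel gene Tpcn1 fell from 44.7 ± 3.26 to 25.7 ± 1.27 CPM, Scarb2, which carries glucocerebrosidase to the lysosome, from 410.3 ± 6.93 to 349 ± 3.24, and the cobalamin exporter gene Lmbrd1 rose from 160.4 ± 1.14 to 191 ± 5.42.

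The 1 other pump subunit that rose was the membrane ring gene Atp6v0b, from 432 ± 16.1 to 546 ± 46.7 CPM (SD, n = 3, log2 0.34, edgeR adjusted p = 0.021). In a list of 17 genes of mTORC1 signalling, TFEB control and the TFEB relative Tfec, 7 were higher and 0 lower. Flcn, which encodes folliculin, a regulator of the Rag GTPases, rose from 171 ± 2.86 to 215 ± 2.06 CPM (log2 0.33, edgeR adjusted p = 3.4e-05), Rragd, itself a Rag GTPase, from 128 ± 6.52 to 153 ± 8.10, and Tfec from 28.8 ± 1.37 to 37.1 ± 1.35. Of 10 genes that sort enzymes to the lysosome 2 fell, the receptor gene Sort1 from 206 ± 7.08 to 128 ± 5.04 CPM and Gnptab, which makes the mannose 6-phosphate tag, from 106 ± 5.84 to 93.2 ± 1.87. In a list of protease inhibitors 4 genes were tested and 1 fell, Serpinb9, from 15.1 ± 0.611 to 11.2 ± 0.623 CPM.

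In dMye macrophages 1 of the 99 genes rose with PCN, the cholesterol exporter gene Npc1, and 4 hydrolase and activator genes fell, Lipa, Gm2a, Acp5 and Pla2g15, where 0.94% of all tested genes were higher and 1.14% lower. The other pump subunits and the list of mTORC1 and TFEB control had 0 called there. By the test of the difference itself 4 of the 99 genes differed between the genotypes in their response to PCN, with a less negative effect in dMye for Lipa, Sgsh and Sort1 and a less positive one for Flcn. Over all tested genes 1.42% differed.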

How the data were processed

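The authors deposited expected counts, which are estimates and so partly fractional, and the submitters' processing notes name mm10 as the build. How reads were aligned and counted, and whether strand was used, is not given in the sources used here. Expected counts were rounded. One fit held all 18 libraries in 4 groups without covariates (R 4.3.3, edgeR 4.0.16, filterByExpr, TMM, robust quasi-likelihood), and p-values were adjusted over 13409 genes. Standard errors are absolute log2 fold changes over the root of F. Replicate numbers follow accession order and only name libraries. Positions and exon lengths came from GENCODE M21 on GRCm38, and promoters from RefSeq. The 36 genes and all lists were chosen with earlier results of these data known. Library values (for groups of 6 the lowest, median and highest) are given for genes called with PCN whose libraries did not overlap and for the 6 smallest p of each genotype comparison, and values of other genes near the threshold were added after they were seen. Other lysosomal genes are named where called with PCN, at most the 3 of smallest p per list. In addition Npc1, Acp5 and Pla2g15 are named because few other lysosomal genes were called with PCN in dMye. The alternatives were 2 other scalings, 2 filters, DESeq2 1.42.0, limma-voom (limma 3.58.1), fits of the compared groups alone, and fits without single libraries or without dMye_DMSO 5 and 6.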

Additional observations from a re-analysis of the deposited data

Results flagged for a closer look

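Of 72 sets of 6 dMye libraries (36 genes in 2 groups), 9 held a library far from the others by Dixon's criterion, which chance alone flags in about 1 in 20. The library dMye_DMSO 5 accounted for 4 of them, dMye_PCN 5 for 4 and dMye_PCN 2 for 1. In dMye_DMSO 5 Ctsk was at 423 CPM (the others 321 to 355), Ctsl at 1459 (1136 to 1254), Ctss at 8623 (6122 to 7051) and Man2b1 at 324 (369.9 to 395). In dMye_PCN 5 Ctsd was at 24343 CPM (the others 21647 to 22405), Hexa at 2196 (1946 to 2021), Lamp2 at 1215 (1038 to 1098) and Tfe3 at 81.3 (93.7 to 99.8). In dMye_PCN 2 Psap was at 28974 CPM (the others 27759.7 to 28171).

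The PCN effects of the genotypes differed by the edgeR interaction test for 4 other genes of the lysosome and of its control. The dMye effect minus the FF effect was 0.30 for Lipa, the lysosomal acid lipase gene (adjusted p = 0.011), 0.41 for Sgsh (adjusted p = 0.047), 0.48 for Sort1 (adjusted p = 0.021) and -0.28 for Flcn (adjusted p = 0.017), all on the log2 scale.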

How the results depend on the processing

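Every called change of the 36 genes kept its direction under the alternatives that were run. In FF with PCN 4 genes were lower in a fit of the FF libraries alone and without dMye_DMSO 5 and 6, and without single libraries the counts ran from 4 to 11 higher and from 1 to 4 lower, lowest without FF_DMSO 1 and highest without dMye_DMSO 5. In dMye with PCN 0 were lower with no filter, in the dMye fit alone and without dMye_DMSO 5 and 6, 1 was higher in DESeq2, and without single libraries 0 to 1 were higher and 0 to 1 lower. For the difference between the effects DESeq2 called 1 higher, and without single libraries 0 to 1 were higher and 0 to 0 lower. For dMye against FF upper-quartile scaling gave 5 higher and 3 lower under DMSO and 6 higher under PCN, and 5 were higher under PCN without dMye_DMSO 5 and 6. Without single libraries these counts ran from 2 to 5 higher and 3 to 6 lower under DMSO, and from 2 to 5 higher and 6 to 11 lower under PCN.

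Over all genes edgeR called 279 in dMye with PCN, DESeq2 590 and the fit of the dMye libraries alone 144. For the difference between the effects edgeR called 190 and DESeq2 407. No paired analysis was possible because the labels give no replicate numbers. Among the lysosomal genes listed by name at the start, the called changes with PCN were at most 1.23-fold. Leaving out 1 library ended 5 of the 10 calls of these genes in FF (Man2b1, Mcoln1, Atp6v0d2, Atp6v1a and Atp6v1b2).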
